A study of Rattus norvegicus with 8 samples.

Results

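Neurofilaments and the microtubule proteins of neurons were examined in the adrenal glands of newborn rats raised in low oxygen. The set consisted of 10 genes, taken by gene symbol from the annotation of the array: the neurofilament chains Nefh, Nefm and Nefl, the related filament genes Ina and Prph, the microtubule protein genes Map1b, Map2 and Mapt, and the neurite growth genes Gap43 and Stmn2. They had 18 of the 15923 probe sets on the array, and their 10 genes stood among 10411 named ones. The genes were chosen by family and with the measured log2 differences between hypoxic and normoxic pools already known, Nefh having been among the genes that passed the test across the array. The values of that comparison are therefore given for these genes as a description.

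Hypoxic pups lived with their dams in 12% O2 from birth to postnatal day 7, and normoxic pups lived with dams fed without restriction in room air over the same time. At the end the outer capsule was stripped from the glands, and 24 glands were pooled for each sample, giving 4 hypoxic and 4 normoxic pools with 1 array each. The labels used here do not give strain, sex or how litters were spread over pools. Each probe set has an intensity in arbitrary units, scaled by the authors to 1 common mean, and the number of arrays limits their precision.

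Neurofilaments are the intermediate filaments of nerve cells, built from a light, a medium and a heavy chain, and in many neurons also from alpha-internexin or peripherin. They fill the axon and set its calibre, while microtubules bound by MAP and tau proteins give the tracks for transport. In the adrenal gland such proteins are known from the chromaffin cells of the medulla, which share a neural crest origin with sympathetic neurons, and from the nerve fibres and ganglion cells that lie among them. Chromaffin and cortical genes were bright in both groups of pools. Th, which starts catecholamine synthesis, averaged 9573 in hypoxic and 8743 in normoxic pools, and the steroid-forming gene Cyp11a1 averaged 19635 in hypoxic and 18384 in normoxic pools. Each value belongs to a mixture of cell types, so fewer cells of a type and less RNA per cell cannot be told apart.

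Of the 18 probe sets, 16 passed the filter on dim signals (a mean signal of at least 95.2), and all 10 genes had at least 1 of them. At the brightest probe set of each gene, 9 genes were higher in hypoxic pools and 1, Map2, was lower, with a median log2 difference of 0.39. The median over all 11106 tested probe sets was -0.02. All log2 differences are hypoxic minus normoxic, on the scale of log2(intensity + 16), where the change of a dim probe set is understated. In limma, 1 of the 16 member probe sets, that of Nefh, passed an adjusted p of 0.05, where 0.117% of all tested probe sets passed as higher and 0.180% passed in either direction. All 4 hypoxic pools lay above all 4 normoxic pools for 4 of the 16, those of Nefh, Map1b, Ina and Mapt, where 2.76% of tested probe sets had all hypoxic pools above all normoxic ones and 5.39% had no overlap in either direction. An unadjusted limma p under 0.05 was reached by 6 of the 16, all higher, against 4.16% of tested probe sets as higher and 8.64% in either direction. Since this comparison was known when the genes were chosen, nothing further is read from these shares.

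**Figure D1:**
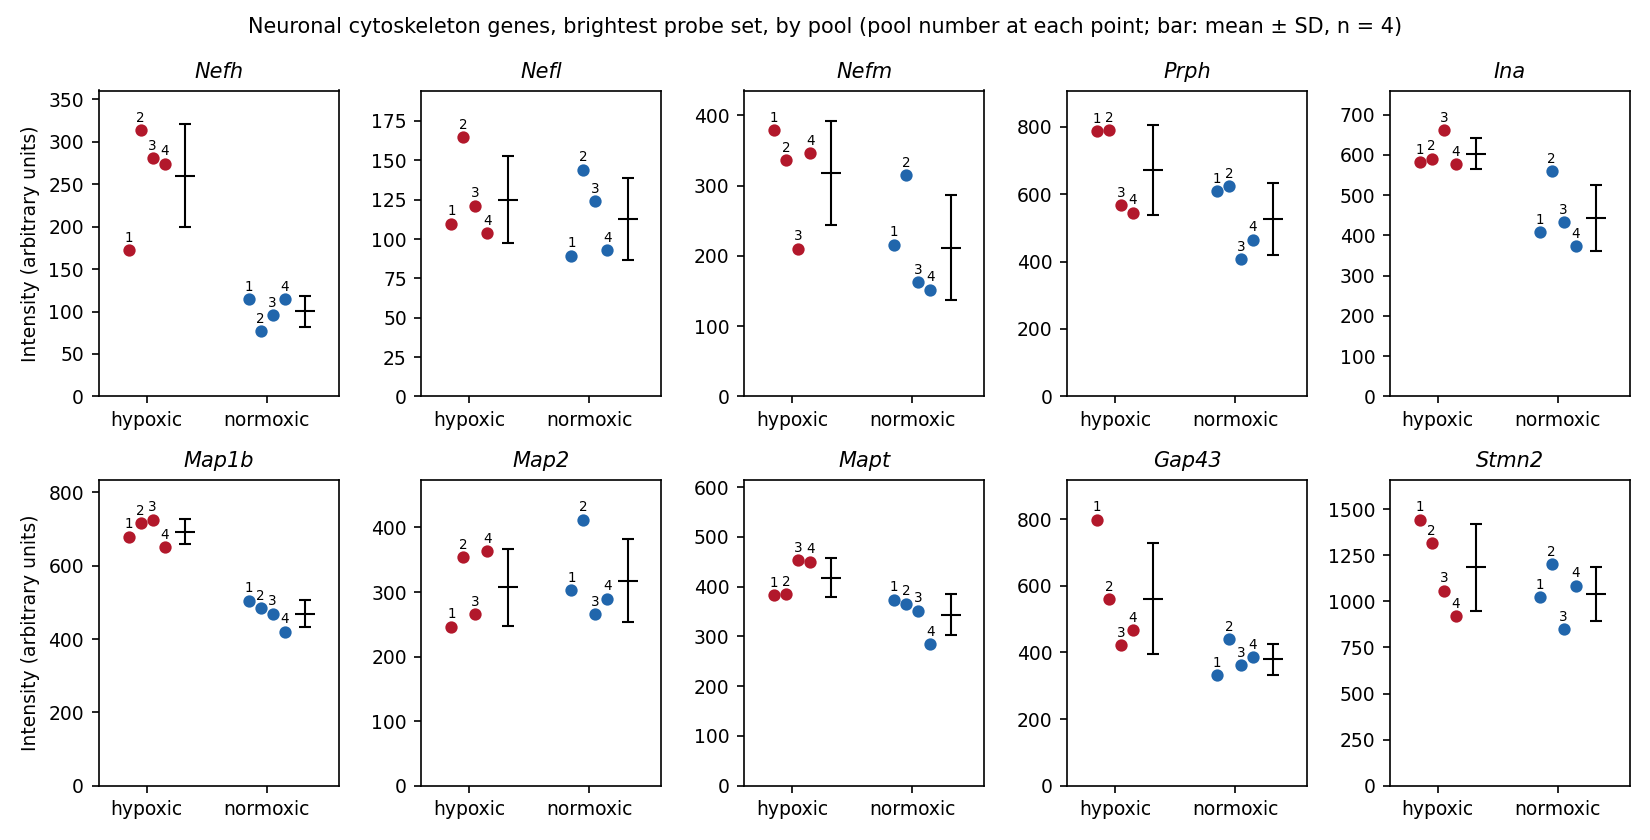
Intensity (arbitrary units, axes from 0) of the brightest probe set of each of the 10 genes in the 4 hypoxic (red, left) and 4 normoxic (blue, right) pools, with the pool number at each point and the mean ± SD in black. For Nefh, Ina, Map1b and Mapt every hypoxic pool sits above every normoxic pool, and for Map2 and Nefl the groups largely cover the same range.

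Nefh, the heavy neurofilament chain, whose long tail carries many phosphorylation sites and reaches out between filaments, differed most among the 10. Its intensity was 172.1, 313.4, 280.7 and 274.4 in hypoxic pools 1 to 4 and 114.8, 76.7, 95.4 and 114.6 in normoxic pools 1 to 4. Hypoxic pool 1 was the lowest of its group and still lay above every normoxic pool. The normoxic values were dim, the lowest of them under the 83.5 reached by the controls for bacterial genes, which have no target in rat RNA. The means were 260.2 ± 61.1 in hypoxic and 100.4 ± 18.2 in normoxic pools (SD, n = 4 each), a log2 difference of 1.23 with a standard error of 0.20 and a 95% interval from 0.80 to 1.66 (limma, adjusted p = 0.0325). Only 3 of the 11106 tested probe sets had a larger positive log2 difference. The adjusted p was 0.0217 without hypoxic pool 1, and between 0.0782 and 0.142 without any 1 of the other 7 pools, while the log2 difference ran from 1.13 to 1.40. The array had a single probe set for this gene, so no second probe set could be set beside it.

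The other chains of the same filament differed by less, and their groups overlapped. Nefm, the medium chain, measured 378.5, 336.1, 210.3 and 345.8 in hypoxic and 215.8, 315.2, 163.0 and 152.1 in normoxic pools. Hypoxic pool 3 lay among the normoxic values, and normoxic pool 2 among the hypoxic ones. The log2 difference was 0.57 with an interval from 0.07 to 1.08, and it ran from 0.45 to 0.77 with 1 pool left out. Nefl, the light chain, the chain on which the others assemble, was read by 2 dim probe sets that gave different sizes. The brighter measured 109.8, 164.9, 121.2 and 103.7 in hypoxic and 89.5, 144.0, 123.9 and 92.8 in normoxic pools, a log2 difference of 0.14 (interval -0.29 to 0.56). The other measured 123.4, 169.0, 82.6 and 109.1 in hypoxic and 104.7, 59.8, 87.9 and 72.2 in normoxic pools, a log2 difference of 0.48 with an interval from -0.0012 to 0.96. Hypoxic pool 2 was the highest hypoxic pool on both, while normoxic pool 2 was the highest normoxic pool on the first and the lowest on the second. In the RefSeq gene table Nefl and Nefm lie next to each other with 1 pseudogene between them, and Nefh lies elsewhere.

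Ina encodes alpha-internexin, a filament protein of developing neurons that assembles with the neurofilament chains. Its brighter probe set measured 582.5, 590.7, 661.0 and 577.8 in hypoxic and 408.2, 560.3, 432.2 and 373.8 in normoxic pools. The groups did not overlap, but normoxic pool 2 came close to the lowest hypoxic pool. The means were 603.0 ± 39.0 and 443.6 ± 81.4 in hypoxic and normoxic pools (SD, n = 4 each), a log2 difference of 0.44 with an interval from 0.16 to 0.72. The second probe set ran from 242.2 to 297.6 in hypoxic and from 161.2 to 276.2 in normoxic pools, a log2 difference of 0.32, and normoxic pool 2 was again the highest of its group. Prph encodes peripherin, the filament protein of peripheral neurons and of cells of the neural crest line. It measured 786.4, 789.1, 567.3 and 544.9 in hypoxic and 609.6, 623.9, 407.6 and 464.7 in normoxic pools. In both groups pools 1 and 2 were high and pools 3 and 4 low, and the hypoxic pools 3 and 4 lay below the normoxic pools 1 and 2. The log2 difference was 0.34 with an interval from -0.025 to 0.71.

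Map1b encodes a microtubule protein of growing axons, and its values lay close together within each group. It measured 679.1, 715.8, 725.8 and 651.5 in hypoxic and 504.9, 483.5, 469.0 and 420.1 in normoxic pools. The groups lay well apart, and the gap between the lowest hypoxic and the highest normoxic pool was wider than the spread within either group. The means were 693.0 ± 34.2 and 469.4 ± 36.0 in hypoxic and normoxic pools (SD, n = 4 each), a log2 difference of 0.55 (interval 0.33 to 0.77) that ran from 0.50 to 0.58 with 1 pool left out. Its adjusted p in limma was 0.0669, and it was not counted as called. A second, dim probe set of Map1b gave no such difference, with 41.8 to 91.0 in hypoxic and 50.6 to 70.1 in normoxic pools. That range lies close to the values of these controls, and the probe set was below the filter.

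The other microtubule proteins differed less. Map2, whose protein sits in dendrites and cell bodies, was the only gene with a lower mean in hypoxic pools. It measured 246.4, 354.4, 265.7 and 363.1 in hypoxic and 303.3, 412.1, 265.9 and 289.8 in normoxic pools, which overlapped throughout, with a log2 difference of -0.05 (interval -0.41 to 0.32). The sign of that difference turned when single pools were left out, and its second probe set gave -0.10 with means of 96.4 in hypoxic and 102.4 in normoxic pools. Mapt, which encodes the axonal protein tau, was read by 3 probe sets, all with positive differences. The brightest one measured 383.3, 385.0, 453.7 and 450.1 in hypoxic and 373.5, 365.8, 351.8 and 284.2 in normoxic pools. The groups were apart by a narrow margin, with a log2 difference of 0.27 and an interval from 0.0049 to 0.54. The other 2 probe sets had log2 differences of 0.33 and 0.25, and on both of them the groups overlapped.

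Gap43 and Stmn2 mark growing neurites, the first as a protein of the growth cone membrane, the second as a protein that loosens microtubules. Gap43 measured 798.4, 559.9, 422.6 and 466.1 in hypoxic and 330.8, 440.4, 361.4 and 385.7 in normoxic pools. Hypoxic pool 1 was far the highest and hypoxic pool 3 lay below normoxic pool 2. The log2 difference was 0.51 (interval 0.12 to 0.90), and ran from 0.33 to 0.63 with 1 pool left out. A second probe set of Gap43 held 1.0 to 16.4 in hypoxic and 1.3 to 9.6 in normoxic pools, all within the range of the bacterial controls, whose median was 5.4. Stmn2 stood at 1443.2, 1315.5, 1058.4 and 920.9 in hypoxic and 1022.9, 1202.3, 847.5 and 1084.8 in normoxic pools. These overlapped, with a log2 difference of 0.18 (interval -0.15 to 0.50), and a second probe set gave 0.11 (interval -0.18 to 0.39).

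**Figure D2:**
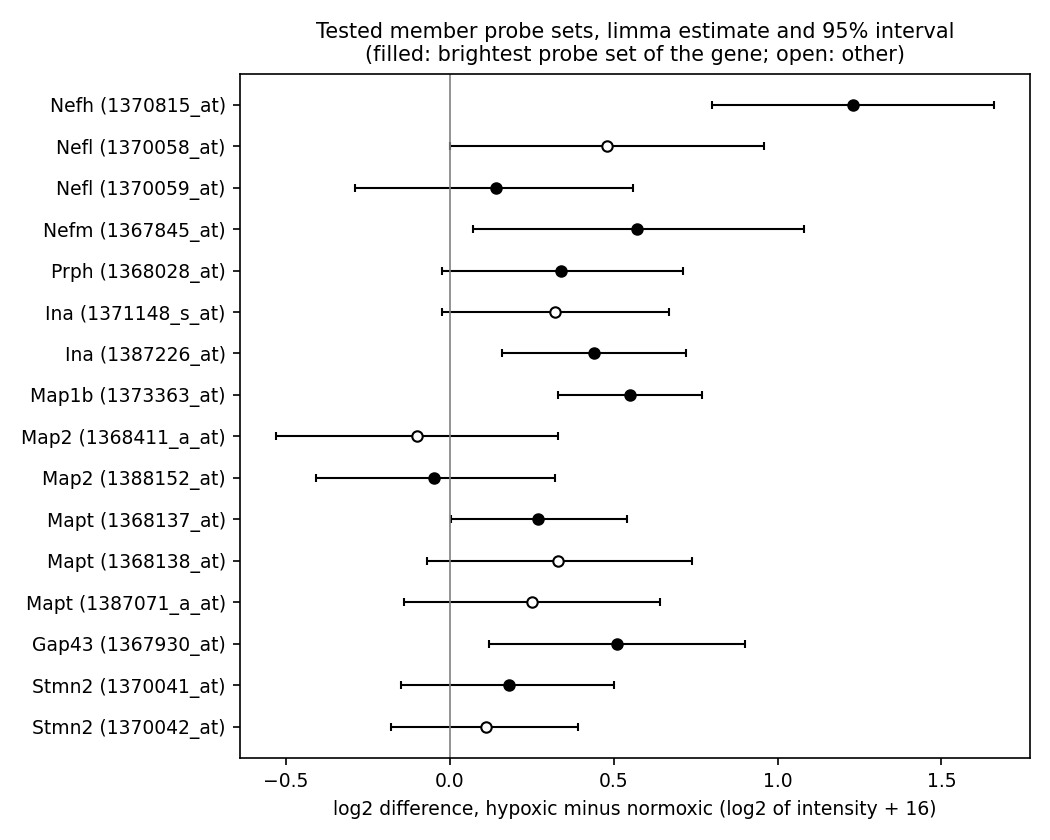
Log2 difference, hypoxic minus normoxic, of the 16 tested member probe sets (points) with the 95% interval from limma (lines); filled points are the brightest probe set of each gene. Nefh stands at 1.23, Map1b at 0.55 has the narrowest interval, and the 2 probe sets of Map2 lie just below 0.

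The stretches before the start sites of Ina and Map1b are shown because both genes had groups that did not overlap and their start sites could be read from the RefSeq promoter table of rat assembly GRCr8. They are the 250 bases upstream of the start site, 5′ to 3′ on the strand of the gene, at chr1:255837879-255838128 (+) for Ina and chr2:32644472-32644721 (-) for Map1b. Capitals mark the core of the hypoxia response element (ACGTG or GCGTG), the TATA box (TATAAA) and the GC box (GGGCGG), each searched on both strands.
Ina: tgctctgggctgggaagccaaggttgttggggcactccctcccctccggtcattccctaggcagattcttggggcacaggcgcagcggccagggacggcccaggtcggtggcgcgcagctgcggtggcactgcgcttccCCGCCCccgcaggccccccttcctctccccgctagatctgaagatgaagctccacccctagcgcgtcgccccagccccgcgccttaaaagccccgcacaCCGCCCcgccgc
Map1b: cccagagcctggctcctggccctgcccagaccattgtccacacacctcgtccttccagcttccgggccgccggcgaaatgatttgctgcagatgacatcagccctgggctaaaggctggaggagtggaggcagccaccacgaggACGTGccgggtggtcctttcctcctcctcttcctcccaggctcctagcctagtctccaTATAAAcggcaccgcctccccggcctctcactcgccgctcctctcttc
The Map1b stretch held ACGTG once, from base -106 to -102, and TATAAA from -48 to -43. The Ina stretch held neither hypoxia core nor a TATA box, and held the GC box on the opposite strand (read as CCGCCC) from -111 to -106 and from -12 to -7. Over all 33469 promoter stretches of the same length, 16.6% held ACGTG, 25.9% GCGTG, 12.9% TATAAA and 30.5% GGGCGG. A match is a run of letters, and binding was not measured. Of the other members, Prph and Map2 had entries whose start site did not match the start of the annotated gene. The Prph stretch held TATAAA and GGGCGG once each and the Map2 stretch held GCGTG once. Nefh, Nefl, Nefm, Mapt, Gap43 and Stmn2 were not matched.

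Among pools of the same group the 10 genes did not vary as 1 block. Each value was taken as its deviation from the mean log2 value of its own group, which removes the difference between hypoxic and normoxic pools. Prph, Gap43 and Stmn2 were high together in hypoxic pool 1, with deviations of 0.243, 0.537 and 0.303, and low together in hypoxic pools 3 and 4. Nefh went the other way, at -0.523 in hypoxic pool 1. In normoxic pool 2, 9 of the 10 genes were above their group mean, by 0.595 for Nefm and 0.044 for Map1b at the extremes, and Nefh again was the exception at -0.314. Over the 8 pools the deviations of Prph and Stmn2 had a Pearson correlation of 0.86 and those of Nefh and Gap43 one of -0.79, the highest and the lowest of the 45 pairs. The Spearman correlations were 0.88 and -0.38. Without hypoxic pool 1 the Pearson correlations were 0.84 and -0.33, so the low value of Nefh with Gap43 rests on that pool. With that pool left out the lowest pair was Nefh with Ina, at -0.88 against -0.41 over all 8 pools. The highest was then Nefm with Map2, at 0.96 against 0.63 over all 8 pools. Genes read on the same array share its RNA and its scaling, and 8 pools with 2 group means removed leave few independent values, so these are descriptions.

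**Figure D3:**
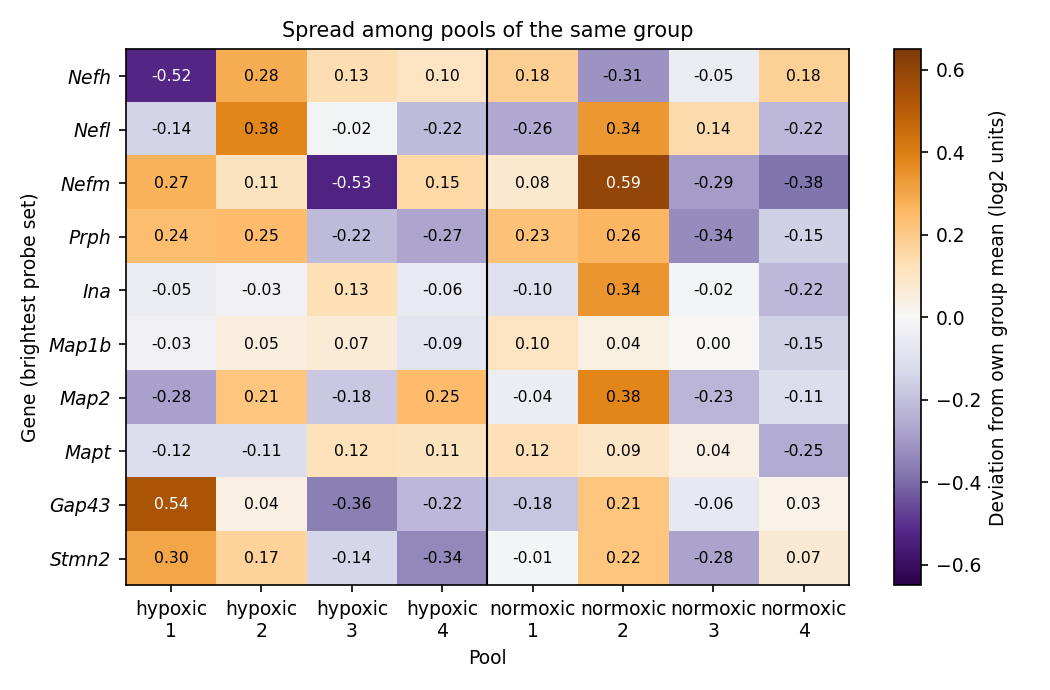
Deviation of each gene's log2 value from the mean of its own group (log2 units, colour and printed number) in the 4 hypoxic pools, left of the line, and the 4 normoxic pools, right of it. Nefh is lowest in hypoxic pool 1, where Gap43 and Stmn2 are highest, and in normoxic pool 2 Nefh is low while the other 9 genes are above their means.

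The genes whose deviations were most like those of Nefh were Maea (Pearson 0.98, Spearman 0.86), Cnih2 (0.97 and 0.81), Osbpl11 (0.97 and 0.83), Naxd (0.96 and 0.79) and Exosc5 (0.96 and 0.74), the top 5 of 8010 genes over 8 pools. These genes were the highest of many set against few pools, and no test was made. None of the other 9 members was close to Nefh in this measure: Map2 had correlations of 0.16 (Pearson) and 0.26 (Spearman), Map1b 0.03 and 0.38, and Nefm -0.54 and -0.50.

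Other genes of the cytoskeleton gave few differences, and in these lists 0 genes passed limma over all probe sets in either direction. The lists were written with earlier results of these data known. Among 21 tested tubulins and microtubule proteins, 14 were higher and 7 lower, with a median log2 difference of 0.15, and 5 had an unadjusted p under 0.05, all higher, where 4.16% of all tested probe sets met this as higher. Tubb3, the beta-tubulin typical of neurons, measured 327.6, 372.3, 261.2 and 322.0 in hypoxic and 243.8, 269.8, 192.6 and 221.2 in normoxic pools (log2 0.44, limma adjusted p = 0.38). Hypoxic pool 3 alone lay below the highest normoxic pool, and a dim second probe set averaged 78.4 in hypoxic and 67.2 in normoxic pools. The stathmin genes Stmn3 and Stmn4 differed by 0.34 and 0.29, and the alpha-tubulin gene Tuba4a by 0.42 (limma adjusted p from 0.491 to 0.543). Among 17 genes of neurite growth at their brightest tested probe sets, 10 were higher and 7 lower (median 0.10). There 3 had an unadjusted p under 0.05, all higher. Dimmer probe sets of Marcks and Pfn2 were lower, at -0.45 and -0.53 (limma, unadjusted p = 0.0357 and 0.0406). Nfasc was below the filter, and 1 of its probe sets measured 21.1 to 87.4 in hypoxic and 106.5 to 196.5 in normoxic pools. Its other probe sets overlapped, with means of 80.6 and 59.0 in hypoxic and 73.0 and 47.8 in normoxic pools. Rtn1, a reticulon of neuroendocrine cells, was 1835.9, 1573.9, 1786.8 and 1612.6 in hypoxic and 1349.7, 1393.1, 1302.7 and 1324.3 in normoxic pools, with no overlap (log2 0.34, limma adjusted p = 0.234). Nrn1 differed by 0.51, Nrcam by 0.37, with 0.16 on its second probe set, and the growth cone protein gene Basp1 by 0.59, with normoxic pool 2, at 471.9, inside the hypoxic range.

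Of 9 tested intermediate filament genes outside the neuronal set, 3 were higher and 6 lower, with a median log2 difference of -0.18, where 45.2% of all tested probe sets were above 0. In limma 1 of the 9 had an unadjusted p under 0.05 at its brightest probe set. That gene was Nes, which encodes nestin, the filament protein of neural progenitors and of some other dividing cells. It measured 289.4, 417.2, 211.9 and 415.2 in hypoxic and 462.1, 648.5, 526.1 and 495.9 in normoxic pools, with no overlap (log2 -0.69, standard error 0.20, limma adjusted p = 0.286). The glial filament gene Gfap differed by -0.36 and the lamin genes Lmnb1 and Lmnb2 by -0.29 and -0.26, with limma adjusted p from 0.602 to 0.668. A dimmer tested probe set of Lmnb1 gave -0.49 (limma, unadjusted p = 0.0154, adjusted p = 0.426). The higher genes were Vim at 0.15, Krt8 at 0.20 and Lmna at 0.13.

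Genes for transport along microtubules and for the kinases and phosphatases of neurofilament tails and tau gave values around 0. Of 16 transport genes 8 were higher and 8 lower, with 1 at an unadjusted p under 0.05. That gene was Klc1, a kinesin light chain, at log2 0.43 on its brightest probe set, while its other tested probe sets gave -0.36 and 0.15. The dynactin gene Dctn1 differed by 0.24, the dynein heavy chain gene Dync1h1 by 0.17 and the scaffold gene Mapk8ip1 by 0.12 on its brightest and by -0.42 on its other probe set. Of 19 kinase and phosphatase genes at their brightest probe sets, 5 were higher and 14 lower (median -0.07). At those probe sets 0 had an unadjusted p under 0.05 in limma, with a lowest adjusted p of 0.638. A dimmer probe set of Camk2b gave 0.51 (limma, unadjusted p = 0.0409, adjusted p = 0.547), where its brightest gave 0.10. The phosphatase subunit genes Ppp2ca and Ppp2r2a differed by -0.22 and -0.16, Ppp2r1a by 0.19 and the casein kinase gene Csnk1a1 by -0.16. The neuronal activators of Cdk5, Cdk5r1 and Cdk5r2, were within the range of the bacterial controls in every pool.

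**Figure D4:**
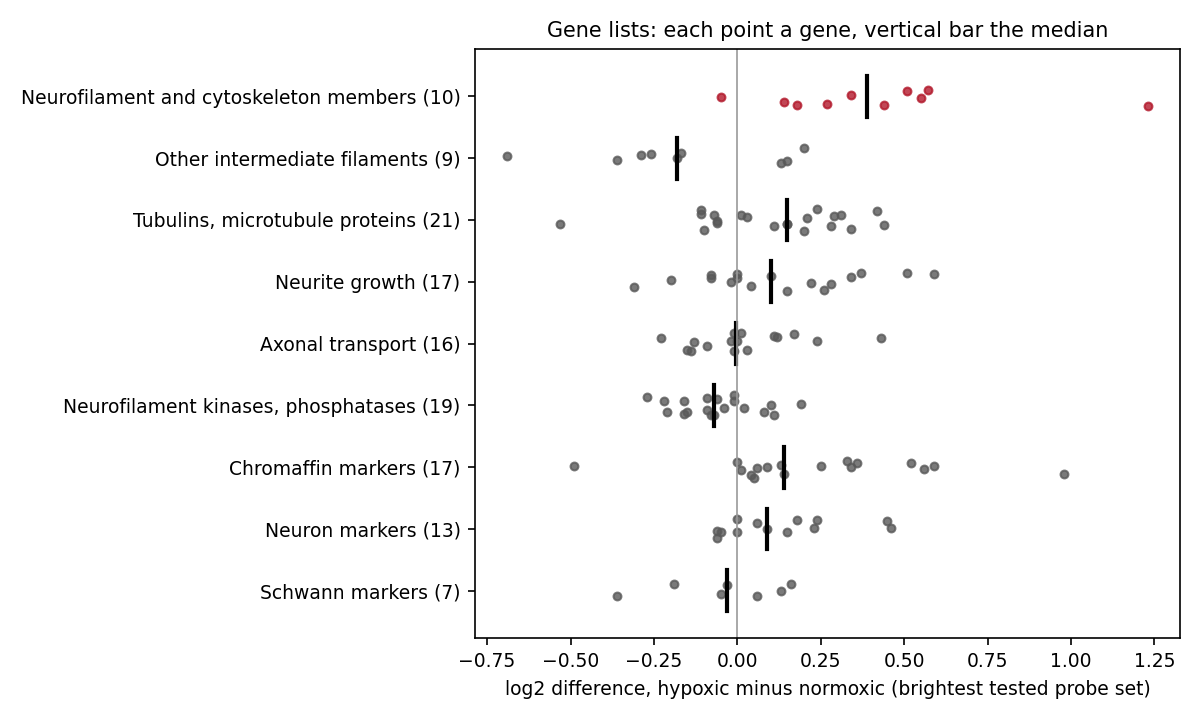
Log2 difference, hypoxic minus normoxic, at the brightest tested probe set of every gene (points) in 9 lists, with the number of genes in brackets and the median as a vertical bar. The 10 neuronal cytoskeleton genes, chosen with this comparison known, have a median of 0.39. The other intermediate filament genes have one of -0.18, and the chromaffin and neuron markers 0.14 and 0.09. The other lists were written with earlier results of these data known.

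Markers of the cells that could hold these transcripts were set beside them. The marker lists too were written with earlier results of these data known, so their counts are descriptions. Chromaffin markers were higher in 16 of 17 tested genes (median log2 difference 0.14), where 45.2% of all tested probe sets were above 0. The 1 lower gene was Pcsk1n, at -0.49. Of the higher ones, Phox2a, Gata3, Chgb, Penk and Scg2 differed by 0.06 or less. Of the 17, 1 rose in limma over all probe sets, Slc18a2, the vesicular monoamine transporter (log2 0.98, adjusted p = 0.0318, with 0.61 on its second probe set), and 8 had an unadjusted p under 0.05, all higher. Npy differed by 0.56, Scg3 by 0.59 and Ddc by 0.36, with limma adjusted p from 0.0844 to 0.232, and a second, dimmer probe set of Ddc gave -0.06. The summed intensity of the 18 chromaffin genes with a probe set ran from 51654 to 71922 in hypoxic and from 46525 to 61212 in normoxic pools, and 0 of them were at 0. The mean log2 value of the 17 tested chromaffin genes was 10.82, 10.98, 11.12 and 11.27 in hypoxic pools 1 to 4, and 10.66, 10.98, 10.90 and 10.71 in normoxic pools 1 to 4. Among hypoxic pools it was thus lowest in pool 1, where Gap43 and Stmn2 were highest, and highest in pool 4, where Prph and Stmn2 were lowest. With this mean as a covariate the log2 difference was 1.19 for Nefh, 0.55 for Map1b, 0.55 for Prph, 0.70 for Gap43, 0.54 for Nefm, 0.39 for Stmn2, 0.31 for Ina, 0.15 for Mapt, 0.02 for the brighter Nefl probe set and -0.24 for Map2. The differences of Nefh, Nefm and Map1b were thus close to those without it. Those of Prph, Gap43 and Stmn2 were larger, and those of Ina, Mapt and Nefl smaller. With that covariate 0 probe sets passed limma. The 17 genes behind it include Slc18a2 and others that were themselves higher in hypoxic pools. The covariate therefore cannot separate the amount of chromaffin cells from a change within them. The part of chromaffin cells in the values of the neuronal cytoskeleton genes was not tested.

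Neuron markers gave 9 higher and 4 lower of 13 tested genes (median log2 difference 0.09), 0 past limma over all probe sets and 2 at an unadjusted p under 0.05. These were the neuropeptide gene Vip, at 167.0 to 215.1 in hypoxic and 119.6 to 191.6 in normoxic pools (log2 0.46, limma adjusted p = 0.441), and the gamma-synuclein gene Sncg (log2 0.45, limma adjusted p = 0.547). Eno2, a neuronal enolase, differed by 0.24 and Hand2, a transcription factor of the sympathetic line, by 0.23. Syn1 differed by -0.06 on its brightest probe set. Its other probe set, below the filter, measured 121.6 to 134.1 in hypoxic and 43.7 to 98.5 in normoxic pools, with no overlap. Of the cholinergic genes in this list, Slc18a3 and Slc5a7 were within the range of the bacterial controls in every pool. Chat was dim and below the filter, at 43.1 to 93.1 in hypoxic and 31.4 to 89.4 in normoxic pools. Its highest values in both groups were thus above the 83.5 reached by the bacterial controls. Innervation of the medulla was not tested. The summed intensity of the 18 neuron genes with a probe set ran from 4454 to 5595 in hypoxic and from 4003 to 4754 in normoxic pools, and 0 were at 0. Schwann cell markers gave 3 higher and 4 lower of 7 tested genes (median -0.03). In limma 0 of them had an unadjusted p under 0.05, and the sums of the 10 genes with a probe set ran from 3012 to 3843 in hypoxic and 2839 to 3785 in normoxic pools. Besides Gfap, Mbp differed by -0.19, Pmp22 by 0.16 and Erbb3 by 0.13. The part of neurons or Schwann cells in the values of the 10 genes was not tested.

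Of the remaining cell types, the fat markers alone had every tested gene below 0, and the leukocyte and endothelial lists were mixed. Cortical markers had a median log2 difference of 0.01 over 9 genes, with Nr0b1 at -0.23, Nr5a1 at -0.27, Cyp11a1 at 0.09 and Cyp11b1 at 0.06. The 7 tested fat markers were all lower (median -0.15), Ucp1 by the most (log2 -1.46), with sums from 2977 to 8932 in hypoxic and 4037 to 12529 in normoxic pools. In this list Cfd differed by -0.64, Cidea by -0.68 and Pparg by -0.13. Endothelial markers had a median of 0.11 over 5 genes, with Pecam1 at -0.53, Eng at 0.22, Kdr at 0.11 and Flt1 at 0.16. Leukocyte markers had 2 genes higher and 4 lower of 6 (median -0.30), with C1qa at -0.42, C1qb at -0.38, C1qc at -0.34, Cd68 at -0.27, Cd74 at 0.17 and Csf1r at 0.14. Red cell markers had a median of 0.42 over 3 genes, with Alas2 at 0.42, Hbb at 0.20 and Slc4a1 at 0.65, but at -0.04 on its other tested probe set. In these 5 lists 0 genes passed limma over all probe sets, and 1 cortical, 1 fat, 1 endothelial, 3 leukocyte and 2 red cell genes had an unadjusted p under 0.05. The part of these cells in the values of the 10 genes was not tested.

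RNA integrity was read from a control gene. The ratio of the 5′ to the 3′ probe set of Gapdh, which falls as RNA breaks down, was 0.618, 0.602, 0.556 and 0.659 in hypoxic and 0.639, 0.587, 0.731 and 0.701 in normoxic pools, which overlapped. With the log2 of this ratio as a covariate the log2 difference was 1.27 for Nefh, 0.51 for Gap43, 0.49 for Map1b, 0.45 for Nefm, 0.31 for Ina, 0.22 for Mapt, 0.18 for Prph, 0.06 for Stmn2, 0.03 for Nefl and -0.13 for Map2. The difference of Nefh was thus about as large with this covariate, those of Prph, Stmn2 and Nefl were much smaller, and 0 probe sets passed limma.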

How the data were processed

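Pools of adrenal glands were read on single-colour arrays from biotin-labelled cRNA, per the labels' protocols. The authors deposited linear intensity values for each probe set. The summarising software is not stated in the labels. Each array's mean of those values after trimming 2% at each end was 500.1, so the authors had scaled them, which hides a change shared by most transcripts. Array medians ran from 228.2 to 248.7, and no pair of arrays held the same values. The labels give pools as separate samples. They do not say whether pools shared litters, so p-values measure the spread between these pools.

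Genes were named from the annotation of the platform, updated through gene IDs to RefSeq (12748 of 12783 probe sets with 1 symbol matched), and 312 probe sets with several symbols were not used for names. After 57 control probe sets were left out, log2 was taken of each intensity, raised to at least 1, plus 16. Probe sets below the 30th percentile of mean log2 value were left out, leaving 11106. Groups were compared with limma 3.58.1 in R 4.3.3 (lmFit, eBayes with a variance trend, two-sided, Benjamini-Hochberg over all tested probe sets, threshold 0.05), and the steps were tested on simulated data. A gene stands at its brightest tested probe set. From each list the text names genes past the threshold and up to 4 with the lowest p, and other genes it names were chosen after their values were seen. The 5 genes most like Nefh were picked by Pearson correlation of deviations from group means. The members and lists were chosen with earlier results of these data known. Alternatives were the offset, filter, normalization, variance trend, each pool left out, a block, 2 covariates and other probe sets.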

Additional observations from a re-analysis of the deposited data

Results flagged for a closer look

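Of 136 groups of 4 pools examined for the genes named, 5 had a pool set far apart from the other 3, where chance flags about 1 in 20 groups. For the brighter Ina probe set hypoxic pool 3 stood at 661.0, the other hypoxic pools lying between 577.8 and 590.7. For the dim Gap43 probe set normoxic pool 3 stood at 9.6, above 1.3 to 2.7 in the others, all within the range of the bacterial controls. For Vip normoxic pool 3, at 191.6, lay above 119.6 to 130.4 in the others. For Hand2 normoxic pool 2, at 718.9, lay above 477.7 to 516.5, and for C1qc normoxic pool 2, at 502.1, lay above 415.5 to 421.6.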

How the results depend on the processing

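The direction of Nefh held under every alternative run, and its call did not. Of 20 probe sets called, with Nefh the 1 member, 20 were also called with an offset of 1 and 21 with quantile normalization, Nefh included (log2 difference 1.35 and 1.28). With no filter, no variance trend, the Gapdh ratio or the chromaffin mean as a covariate, 0 probe sets and 0 members passed limma, with 1199, 941, 813 and 1114 probe sets at an unadjusted p under 0.05. The smallest adjusted p was then 0.0575, 0.077, 0.0981 and 0.0713. The log2 difference of Nefh was 1.23, 1.23, 1.27 and 1.19 there (adjusted p 0.0856, 0.077, 0.124 and 0.172). The filter changes the number of probe sets adjusted for and the spread. The trend changes how limma pools the spread over probe sets, and with it the p of each. Neither the filter nor the trend can move a difference. The standard error of Nefh was 0.195 in the main run, 0.206 with no filter and 0.184 with no variance trend. It was 0.236 with the Gapdh ratio and 0.254 with the chromaffin mean as a covariate. Why the covariates end the calls was not tested. With 1 pool left out, 0 to 31 probe sets and 0 to 1 members passed, the most without hypoxic pool 1, and the difference of Nefh ran from 1.13 to 1.40. Same-numbered pools had correlations of 0.323, 0.0026, 0.186 and -0.0434 between their deviations, and the other pairs ran from -0.311 to 0.163. Whether same-numbered pools share more than a number was not tested. With the replicate number as a block 18 probe sets and 0 members passed, Nefh at 1.23 with adjusted p = 0.0522. Of the results for the other 9 genes 143 kept their direction and their side of the threshold, and 3 reversed: Map2 was at 0.05, 0.01 and 0.08 without hypoxic pool 1, hypoxic pool 3 and normoxic pool 2, within a range from -0.13 to 0.08. Signal near the bacterial controls limits Nefh in normoxic pools, Nefl, the dimmer probe sets of Map2 and Map1b and the second of Gap43.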
